A study of Mus musculus with 25 samples.

Results

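The EGR, NR4A and KLF early factors are 10 listed early response genes: Egr1, Egr2, Egr3, Nr4a1, Nr4a2, Nr4a3, Klf2, Klf4, Klf6 and Ier2. They were found by matching each symbol to an Ensembl identifier of the gene count table, and 8 of the 10 had a row there, among 13641 genes; all 8 entered the test of 13630 genes. Egr2 and Nr4a3 are not analysed here. The 25 libraries were made from hematopoietic stem cells, gated as Lin−Sca1+cKit+CD48−CD150+, of mice that had been engrafted with donor marrow. Il1bKO libraries (labelled SclCre;V617F;IL-1b-/-GFP) came from donors with mutant JAK2 and without the cytokine gene Il1b. Il1r1KO libraries (SclCre;V617F;IL-1R1-/-GFP) came from donors with mutant JAK2 and without the IL-1 receptor gene Il1r1. VF libraries (SclCre;V617F;GFP) came from donors with mutant JAK2 alone, and WT libraries (SclCre;GFP) from donors without it, so every group carries SclCre and GFP by its label. The mutation was switched on with tamoxifen 16 weeks after transplantation, and mice were killed 4 weeks after its start (3 libraries each of Il1bKO, Il1r1KO and VF) or 2 weeks after it (4 libraries each of Il1bKO, Il1r1KO, VF and WT). WT cells of 4 weeks are not analysed here. The Cre is driven by Scl, a gene of stem cells and of other blood and vessel cells, and the labelled gate names no donor marker, so stem cells left over from the host were not separated by it.

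Early response genes are switched on within minutes of a signal, before any new protein is made, and their messages decay as fast. Growth factors, cytokines and stress reach them through MAP kinases, which act on SRF and its ELK partners, and through CREB, and many of the products are themselves transcription factors. EGR proteins are zinc finger factors that bind GC-rich sites, NR4A proteins are nuclear receptors that work without a known hormone, and KLF proteins are zinc finger factors of GC boxes. In mice, Egr1 and the NR4A receptors are known for keeping blood stem cells out of cycle. JAK2-V617F is the always-active kinase of the myeloproliferative neoplasms, and IL-1β acts on its target cells through IL-1R1.

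Library totals ran from 21990959 to 40178173 reads in genes, with between 11871 and 13491 genes detected. The library Il1bKO_4w 5 (genotype, week and replicate number) stood apart with the most reads and the fewest genes detected, and values that rest on it are given with and without it. Without it, genes detected ran from 13039 to 13375 in the 4-week libraries, against 13225 to 13491 in the 2-week libraries. A part of this difference in the changes between weeks was not tested. Il1b had 0 reads in all 7 Il1bKO libraries, 0 to 84 reads in Il1r1KO, 0 to 391 in VF and 0 to 4 in WT. Il1r1 was counted in every genotype, with 271 to 882 reads in the Il1r1KO libraries, and whole-gene counts cannot check that deletion. The first part of the human JAK2 construct had at least 1782 reads in each mutant library, against 1 to 20 in libraries labelled WT, but CreERT2 had at least 5382 reads in each mutant library and 0 to 1 reads in those labelled WT, although their label carries the Cre. Reads of pEGFP ran from 83 to 27442 in WT and were low in WT_2w 3 and WT_2w 4, so comparisons with WT are also given without that pair. Stem cell markers were present: Kit averaged 809 CPM, Mecom 296, Procr 99.9 and Slamf1 99.0, and Cd48, which the gate excludes, 5.05. CPM are read counts scaled to library size with TMM factors.

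The members spanned a wide range of levels. Per length of exon, Ier2, a nuclear protein gene of the early response, was highest at a mean of 159 CPM per kb over the 25 libraries and was above Egr1 in all 25. Egr1 (44.7 CPM per kb) and Klf6 (35.1 CPM per kb) came next, and their order changed between libraries, with Egr1 above Klf6 in 15 of 25. In the mutant libraries Egr1 averaged 13.9 CPM per kb at 4 weeks and 63.9 at 2 weeks, and Klf6 averaged 16.9 CPM per kb at 4 weeks and 42.5 at 2 weeks, so their mean order differed between the weeks. Nr4a1 (4.41), Klf2 (4.38) and Nr4a2 (4.23 CPM per kb) were not separated: Nr4a1 was above Klf2 in 11 libraries and Klf2 above Nr4a2 in 13. Klf4 (0.535 CPM per kb) and Egr3 (0.0928 CPM per kb) were lowest, and both had libraries without any read.

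The members were lower at 4 weeks than at 2 weeks after tamoxifen in the mutant libraries. As the mean over the 3 mutant genotypes, 6 of the 8 members fell and none rose (edgeR quasi-likelihood test, Benjamini-Hochberg adjusted p under 0.05), where 5.82% of all tested genes were called lower and 14.4% were called in either direction. All 8 had log2 changes below 0, their median was −1.51 and that of all genes −0.03. With Egr3 set at its read bound the members' median was also −1.51. It could not move, since Egr3 stayed the lowest of the 8 either way. DESeq2 and limma voom called 7 each. Without Il1bKO_4w 5, 7 of the 8 were called, and 7 also without it and the libraries VF_4w 6 and Il1r1KO_4w 5, which stood apart in earlier results of these data. The labels put the 2 weeks in 2 processing batches, so week and batch cannot be told apart. In bulk libraries, fewer cells of a type and less RNA per cell cannot be told apart either.

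**Figure D1:**
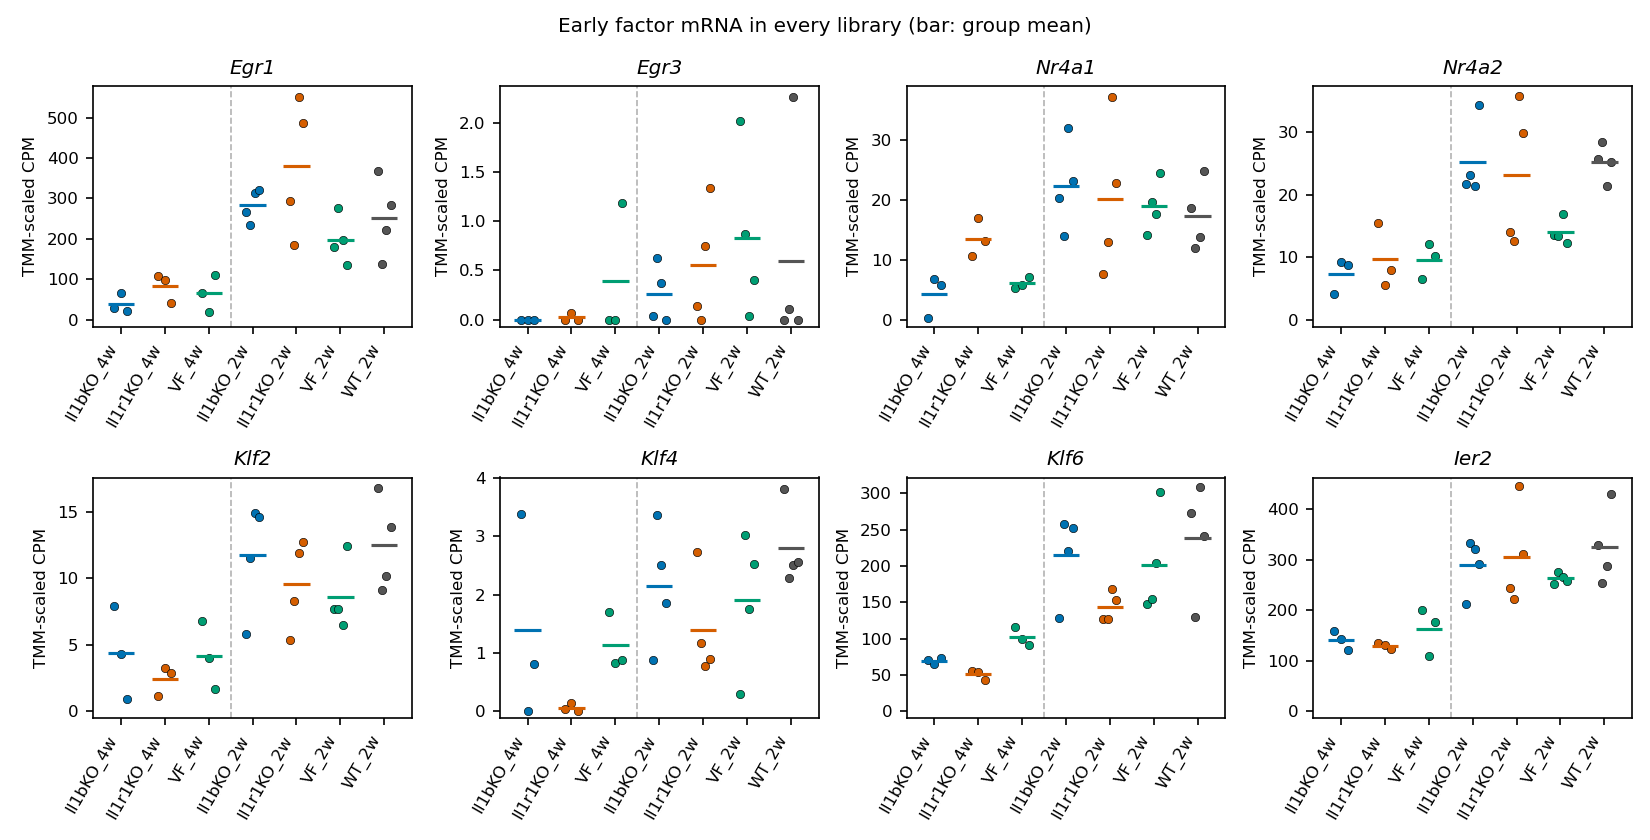
Level of each member (TMM-scaled CPM, linear axis) in each of the 25 libraries, with a bar at the group mean; the dashed line divides the 4-week groups, on the left, from the 2-week groups. Egr1, Klf6 and Ier2 had their 9 libraries of 4 weeks below the 12 mutant libraries of 2 weeks, while Egr3 and Klf4 had libraries near 0 at both times.

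Egr1 (ENSMUSG00000038418, chr18:34859823-34864984, plus strand, mm10) is the prototype of its family. In the 4-week libraries Egr1 was at 29.0, 65.8 and 21.3 CPM in Il1bKO, at 109, 97.0 and 42.2 CPM in Il1r1KO, and at 66.3, 19.7 and 110.5 CPM in VF. In the 2-week libraries it was at 266, 234, 313 and 321 CPM in Il1bKO, at 294, 186, 551 and 485 CPM in Il1r1KO, at 179, 276, 198 and 135 CPM in VF, and at 367, 139, 221 and 284 CPM in WT. Each of the 9 libraries of 4 weeks was below each of the 16 libraries of 2 weeks, WT included. Over the mutants Egr1 averaged 62.3 ± 36.6 CPM at 4 weeks (SD, n = 9) and 287 ± 123 CPM at 2 weeks (SD, n = 12). It fell by 2.22 on the log2 scale (SE 0.29, edgeR, Benjamini-Hochberg adjusted p = 0.000138), and by 2.16 without Il1bKO_4w 5. Egr3 (ENSMUSG00000033730, chr14:70077203-70082614, plus strand), a relative best known from T cells and muscle spindles, was barely detected. It had 0, 0 and 0 reads in Il1bKO, 0, 2 and 0 in Il1r1KO and 0, 0 and 38 in VF at 4 weeks, against 1, 19, 10 and 0 reads in Il1bKO, 4, 0, 19 and 42 in Il1r1KO and 54, 28, 1 and 9 in VF at 2 weeks. The ranges overlapped and Egr3 did not pass (fitted log2 −3.74, SE 1.42, edgeR, Benjamini-Hochberg adjusted p = 0.0824). In Il1bKO, with no reads at 4 weeks, Egr3 was set at a read bound, a floor of 3 reads over the group. At that bound it was 8.67-fold below its 2-week level. The bound covers counting error at 4 weeks only, and the library Il1bKO_2w 4 also had no read. The fall in Il1bKO was not called (edgeR unadjusted p = 0.0516, Benjamini-Hochberg adjusted p = 0.265).

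Nr4a1 (ENSMUSG00000023034, chr15:101254269-101274795, plus strand), the receptor Nur77, ran from 0.301 to 16.9 CPM with a median of 6.79 CPM in the mutant 4-week libraries, against 7.60 to 37.1 CPM with a median of 20.0 CPM in the mutant 2-week libraries. The ranges overlapped. In Il1bKO the 4-week libraries had 0.301, 6.79 and 5.73 CPM, below the 2-week libraries at 20.3, 14.0, 32.0 and 23.1 CPM. In Il1r1KO the 4-week libraries had 10.6, 16.9 and 13.0 CPM, inside the span of the 2-week libraries of that genotype at 7.60, 12.9, 37.1 and 22.8 CPM. In VF the 4-week libraries had 5.23, 5.86 and 7.15 CPM, all under the 2-week libraries at 14.2, 19.7, 17.6 and 24.4 CPM. In the mean over genotypes Nr4a1 fell by 1.53 on the log2 scale (SE 0.35, edgeR, Benjamini-Hochberg adjusted p = 0.00652). Its lowest library was Il1bKO_4w 5, and without it Nr4a1 fell by 1.35. Nr4a2 (ENSMUSG00000026826, chr2:57106830-57124003, minus strand), the receptor Nurr1 that dopamine neurons need, ran from 4.07 to 15.4 CPM with a median of 8.80 CPM at 4 weeks, against 12.3 to 35.8 CPM with a median of 19.1 CPM at 2 weeks. A single library of 4 weeks, Il1r1KO_4w 5 at 15.4 CPM, reached into the 2-week range. By genotype the 4-week libraries had 4.07, 9.26 and 8.80 CPM in Il1bKO, 15.4, 5.53 and 7.95 CPM in Il1r1KO and 6.45, 12.1 and 10.2 CPM in VF. Nr4a2 fell by 1.19 on the log2 scale (SE 0.22, edgeR, Benjamini-Hochberg adjusted p = 0.00210).

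Of the 3 KLF genes, Klf6 and Klf2 fell and Klf4 did not pass. Klf6 (ENSMUSG00000000078, chr13:5861482-5870394, plus strand), a broadly expressed tumour suppressor candidate, was at 70.5, 64.8 and 73.0 CPM in Il1bKO, 55.5, 54.0 and 43.1 CPM in Il1r1KO and 115, 99.4 and 90.8 CPM in VF at 4 weeks. At 2 weeks it was at 128, 257, 221 and 252 CPM in Il1bKO, 126, 126, 168 and 153 CPM in Il1r1KO, 148, 154, 203 and 302 CPM in VF, and 273, 130.0, 309 and 241 CPM in WT. No 4-week library reached the lowest 2-week library, though VF_4w 5 at 115 CPM came close to the 126 CPM of Il1r1KO at 2 weeks. Klf6 fell by 1.37 on the log2 scale (SE 0.15, edgeR, Benjamini-Hochberg adjusted p = 1.7e-05), the lowest adjusted p of the 8 members. Klf2 (ENSMUSG00000055148, chr8:72319033-72321656, plus strand), which keeps T cells quiescent and blood vessels calm, ran from 0.899 to 7.91 CPM (median 3.25 CPM) at 4 weeks, against 5.36 to 14.9 CPM (median 9.92 CPM) at 2 weeks in mutants. The libraries of 4 weeks had 7.91, 4.32 and 0.899 CPM in Il1bKO, 1.16, 3.25 and 2.90 CPM in Il1r1KO and 6.75, 4.01 and 1.65 CPM in VF. The ranges overlapped in the libraries Il1bKO_4w 5 and VF_4w 5. Klf2 fell by 1.48 on the log2 scale (SE 0.33, edgeR, Benjamini-Hochberg adjusted p = 0.00650), and by 1.73 without Il1bKO_4w 5.

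Klf4 (ENSMUSG00000003032, chr4:55527143-55532466, minus strand), a reprogramming factor that also drives monocyte formation, was close to the limit of detection. It had 135, 0 and 26 reads in Il1bKO, 1, 4 and 0 in Il1r1KO and 45, 23 and 28 in VF at 4 weeks. At 2 weeks it had 24, 102, 67 and 56 reads in Il1bKO, 78, 33, 20 and 28 in Il1r1KO, 8, 97, 45 and 56 in VF, and 105, 66, 69 and 70 in WT. The reads of 1 library, Il1bKO_4w 5 with 135, were the most of any 4-week library. Klf4 did not pass (log2 −1.90, SE 0.65, edgeR, Benjamini-Hochberg adjusted p = 0.0524), and it passed without Il1bKO_4w 5 (log2 −2.49, edgeR, Benjamini-Hochberg adjusted p = 0.0124). With all libraries kept, DESeq2 (Benjamini-Hochberg adjusted p = 0.0109) and limma voom (0.0184) called Klf4. Ier2 (ENSMUSG00000053560, chr8:84661331-84662852, minus strand) was at 159, 144 and 122 CPM in Il1bKO, 135, 132 and 123 CPM in Il1r1KO and 202, 110.2 and 176 CPM in VF at 4 weeks. At 2 weeks it was at 212, 333, 322 and 291 CPM in Il1bKO, 244, 222, 447 and 312 CPM in Il1r1KO, 253, 276, 265 and 259 CPM in VF, and 329, 254, 287 and 429.9 CPM in WT. The highest 4-week library, at 202 CPM, was under the lowest 2-week library, at 212 CPM. Ier2 fell by 0.99 on the log2 scale, the smallest fitted change of the 8 (SE 0.13, edgeR, Benjamini-Hochberg adjusted p = 0.000127).

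**Figure D2:**
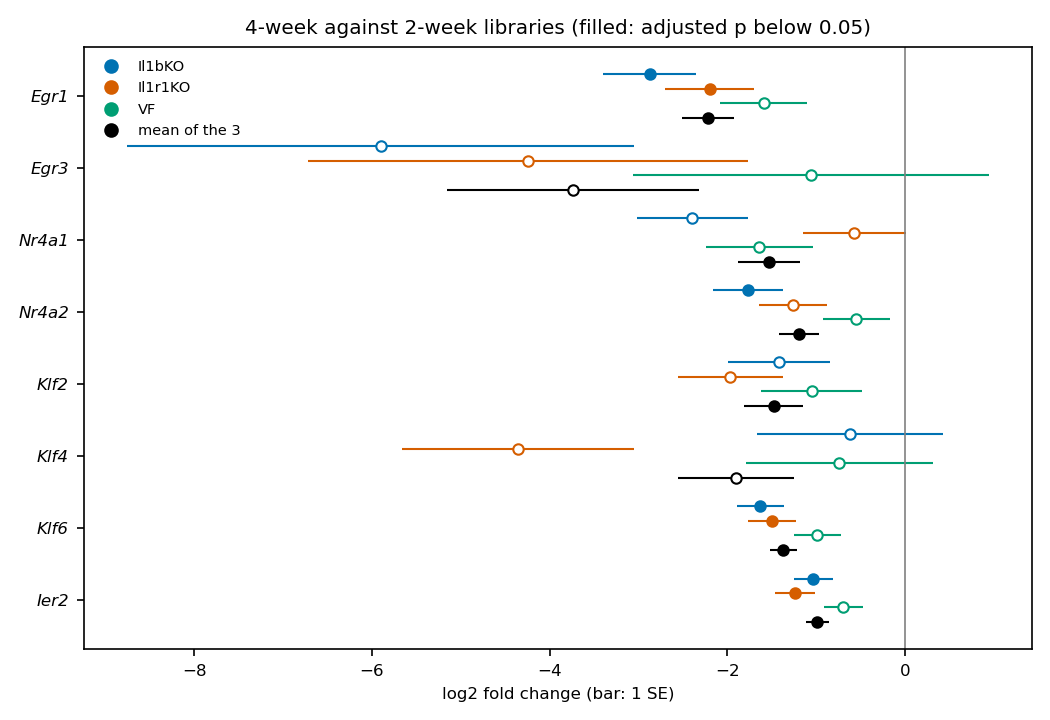
Log2 fold change of each member, 4 weeks against 2 weeks, in Il1bKO, Il1r1KO and VF and as their mean, with bars of 1 SE; filled points passed the adjusted test. All points lie below 0, 6 of the 8 means are filled, and none of the VF points is.

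The CPM ranges of the 9 and the 12 mutant libraries were separate for Egr1, Klf6 and Ier2, all lower at 4 weeks; among all tested genes, 0.132% (18 genes) were separate and lower. Of those 18 genes, 3 were members, 6 belonged to the list of other early genes and 9 to neither. Within single genotypes, the fall was called for 4 members in Il1bKO (Egr1, Nr4a2, Klf6 and Ier2), where 0.748% of all genes were called and 0.448% were called lower, and for 3 in Il1r1KO (Egr1, Klf6 and Ier2), where 2.46% were called and 0.792% called lower. Egr1 fell by 2.87 on the log2 scale in Il1bKO (SE 0.52, edgeR, Benjamini-Hochberg adjusted p = 0.0113) and fell by 2.20 in Il1r1KO (SE 0.50, adjusted p = 0.0317). In VF edgeR called 0 members, with 0.022% of all genes called; 4 members had an unadjusted p under 0.05 (Egr1, Nr4a1, Klf6 and Ier2), limma voom called 0 and DESeq2 called 1 (Klf6). Egr1 in VF had a log2 change of −1.59 (SE 0.49, edgeR, Benjamini-Hochberg adjusted p = 0.383). In each genotype the 4-week and 2-week CPM ranges were separate for 5 of the 8 members, where 8.2% (Il1bKO), 7.58% (Il1r1KO) and 6.99% (VF) of all genes were separate and lower. These single-genotype counts turned on single libraries: Il1bKO had 0 called without Il1bKO_4w 5 and 2 without any of Il1bKO_2w 2, 3 or 4, and Il1r1KO had 0 called without Il1r1KO_4w 5 and 6 without Il1bKO_4w 5. The fitted changes moved little: in Il1bKO without Il1bKO_4w 5 they were −2.70 for Egr1, −1.48 for Nr4a2, −1.64 for Klf6 and −1.13 for Ier2, and in Il1r1KO without Il1r1KO_4w 5 they were −2.45 for Egr1, −1.57 for Klf6 and −1.27 for Ier2 (log2). The 3 genotypes were not shown to differ in the step: for the change of Il1bKO against VF between the weeks, edgeR called 0 of 8 members (background 0.0147%, DESeq2 and limma voom 0), and 1 had an unadjusted p under 0.05 (Nr4a2, log2 −1.22, edgeR, Benjamini-Hochberg adjusted p = 0.545). For Il1r1KO against VF edgeR also called 0 (background 0%, DESeq2 and limma voom 0), and 1 had an unadjusted p under 0.05 (Klf4, log2 −3.61, edgeR, Benjamini-Hochberg adjusted p = 0.884).

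The promoters of 5 of the 8 measured members were read, since the members moved together with week; RefSeq (GRCm38.p6) gave the 250 bases before the start of Nr4a1, Nr4a2, Klf2, Klf4 and Klf6. Each was searched on both strands for a CREB half-site (TGACG), the full CREB site (TGACGTCA, which contains the half-site), an EGR site (GCGNGGGCG) and the CArG box of SRF. The 4 with a match are shown 5′ to 3′ on the strand of the gene, with capitals on the half-sites and EGR sites on either strand (CGTCA is the half-site read from the other strand).
Nr4a1, chr15:101266596-101266845: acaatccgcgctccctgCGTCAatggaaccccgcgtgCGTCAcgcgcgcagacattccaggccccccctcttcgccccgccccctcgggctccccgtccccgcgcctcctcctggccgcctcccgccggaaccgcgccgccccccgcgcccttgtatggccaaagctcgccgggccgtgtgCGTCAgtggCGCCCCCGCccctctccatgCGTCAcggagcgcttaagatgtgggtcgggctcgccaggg
Nr4a2, chr2:57124004-57124253: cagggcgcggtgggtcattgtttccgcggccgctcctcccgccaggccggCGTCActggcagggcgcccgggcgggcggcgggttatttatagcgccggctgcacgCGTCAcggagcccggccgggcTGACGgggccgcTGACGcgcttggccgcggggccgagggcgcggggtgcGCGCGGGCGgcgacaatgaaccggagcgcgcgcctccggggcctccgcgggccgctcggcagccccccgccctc
Klf2, chr8:72318812-72319061: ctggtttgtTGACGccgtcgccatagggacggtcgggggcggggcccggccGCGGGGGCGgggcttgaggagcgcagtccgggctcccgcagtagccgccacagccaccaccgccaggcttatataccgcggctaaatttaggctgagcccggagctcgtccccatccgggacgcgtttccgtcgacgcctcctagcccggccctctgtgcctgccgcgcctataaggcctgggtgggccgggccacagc
Klf4, chr4:55532476-55532725: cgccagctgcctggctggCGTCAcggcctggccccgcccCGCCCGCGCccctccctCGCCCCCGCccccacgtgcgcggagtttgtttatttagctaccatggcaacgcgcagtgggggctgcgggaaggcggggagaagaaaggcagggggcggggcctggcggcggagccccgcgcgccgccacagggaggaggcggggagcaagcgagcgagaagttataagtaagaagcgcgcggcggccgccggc
The start that RefSeq gives for Nr4a1 lies inside the span of the gene in GENCODE. Nr4a1 and Nr4a2 had 4 half-sites and 1 EGR site each, Klf2 had 1 of each, and Klf4 had 1 half-site and 2 EGR sites. Klf6 (chr13:5861239-5861488) had neither in this window. The half-site was in 4 of the 5 promoters and in 17.8% of all 32851 RefSeq promoters of the same length, and the EGR site was in 4 of the 5 and in 4.7% of all. The full CREB site (1.55% of all promoters) and the CArG box (1.47%) were in 0 of the 5. Promoters of Egr1, Egr3 and Ier2 were not searched, so these counts say nothing about sites in those genes. The promoters of the background were not matched to the 5 in base composition, so these shares do not separate the sites from GC content. A match of letters does not show that a factor binds there, and a part of these sites in the members' step was not tested.

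Other genes of the early response were lower at 4 weeks as well. Of 43 tested genes on the list of other early genes, 17 fell (39.5%) and 1 rose, with a median log2 change of −0.40. The AP-1 subunit Fos was at 22.0 ± 11.3 CPM at 4 weeks and 395 ± 134 CPM at 2 weeks (SD, n = 9 and 12), and fell by 4.16 on the log2 scale (SE 0.30, edgeR, Benjamini-Hochberg adjusted p = 2.31e-08). Zfp36, whose product speeds mRNA decay, fell by 2.06, Dusp1, a phosphatase of MAP kinases, fell by 1.97, Jun, an AP-1 subunit, fell by 2.21, and Fosb, another, fell by 3.70 (all log2). Mcl1, which protects cells from death, fell by 0.48, and Myc, the highest of the list, did not pass (log2 0.12, edgeR, Benjamini-Hochberg adjusted p = 0.466). The gene that rose was Id1 (log2 0.99) and was named after its value was seen.

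Of 25 tested upstream factors, which carry signals to the early response, 2 fell and 0 rose, with a median of −0.09. That is 8% called lower, near the 5.82% of all genes. Mrtfb, a partner of SRF, fell by 0.36 and Crtc2, a partner of CREB, fell by 0.48 (log2). Of 16 other family genes and EGR corepressors, 1 fell (Klf12, log2 −0.93) and 0 rose (6.25% called lower, about the share of all genes), with a median of −0.12; Klf10 (log2 −0.07), Klf9 (−0.23) and the EGR corepressor Nab1 (0.01) did not pass. Heat shock genes went the other way: of 11 tested, 5 rose (45.5%) and 0 fell, with a median of 0.24. Of all genes, 14.4% were called in either direction, with 5.82% called lower. Hspe1, a mitochondrial chaperone gene, rose by 0.44 and Hsp90ab1 by 0.16. Hspa1b rose by 3.77 (SE 1.06) and Hspa1a by 3.70 (SE 1.17), a pair of near-identical copies whose reads may be split between them. At 4 weeks their SD exceeded their mean, at 18.0 ± 26.8 CPM for Hspa1b and 8.57 ± 12.7 CPM for Hspa1a (SD, n = 9). The part of the heat shock genes in the members' step was not tested.

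**Figure D3:**
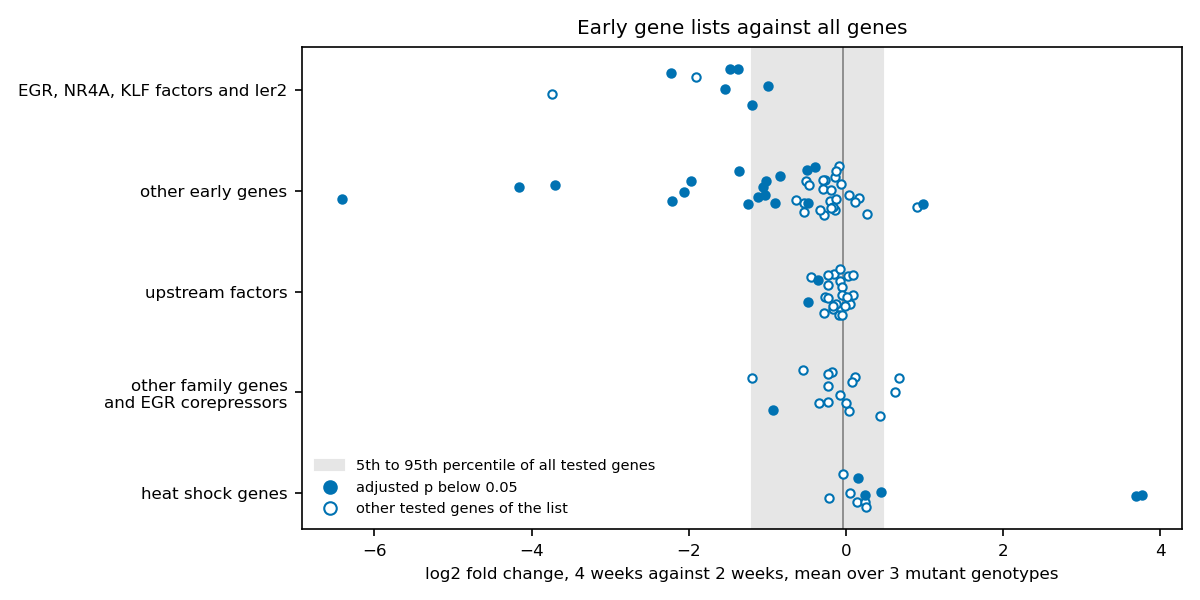
Log2 fold change, 4 weeks against 2 weeks as the mean over 3 mutant genotypes, for each tested gene of 5 lists; filled points passed the adjusted test and the grey band spans the 5th to 95th percentile of all tested genes (−1.20 to 0.48). Of the 8 early factors, 6 lie left of the band and Nr4a2 (−1.19) and Ier2 (−0.99) lie inside it; part of the other early genes also lie left of it, the upstream factors lie inside it, and a pair of heat shock genes lies far to the right.

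Some markers of cell types also differed between the weeks, though the summed ranges given here overlapped. Of all tested genes, 5.82% were called lower and 14.4% in either direction. The 14 stem cell markers summed to 2531 to 3265 CPM in the mutant 4-week libraries, against 3132 to 4123 CPM in the mutant 2-week libraries; 4 of the 14 fell and 0 rose. Markers of multipotent progenitors were Cd48, Flt3, Cd34 and Cd27, of which the gate sorts on CD48 alone. Over the 25 libraries Cd34 averaged 242 CPM and Cd27 136 CPM, against 31.6 for Flt3 and 5.05 for Cd48. The 4 summed to 290.4 to 734 CPM at 4 weeks, against 237 to 525 CPM at 2 weeks. Of them 1 rose, all 4 had a log2 change above 0, and their median was 0.48. The 9 megakaryocyte markers summed to 265 to 2110 CPM at 4 weeks, against 228 to 624 CPM at 2 weeks, with 2 called higher, and the 11 erythroid markers to 114 to 698 CPM, against 84.2 to 278 CPM, with 2 called higher. None of these genes was at 0 in all mutant 4-week libraries. Neutrophil and monocyte markers (9 of 14 in the table) spanned 353 to 608 CPM at 4 weeks, against 418 to 668 CPM at 2 weeks, with 0 called. Over the 25 libraries their median sum was 575 CPM, and Lyz2 alone averaged 405 CPM, most of a typical sum. S100a8 averaged 1.46 CPM and S100a9 1.19 CPM. Macrophage and dendritic, B lineage, mast and basophil, and endothelial and stromal markers also had 0 called. The 2 T and NK markers had 1 called in each direction. The part of these differences in the members' step was not tested.

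VF was compared with WT at 2 weeks, where both had been processed in the same batch. By their reads the groups also differed in CreERT2, so mutant JAK2 and the Cre cannot be told apart here. The same holds for the knockouts against WT. edgeR called 0 of 8 members (0.00734% of all genes were called), DESeq2 and limma voom called 0, and 1 member had an unadjusted p under 0.05. That was Nr4a2, at 13.6, 13.3, 17.0 and 12.3 CPM in VF, against 25.6, 28.4, 21.4 and 25.2 CPM in WT. Every VF library was below every WT library, which 1.8% of all genes also were. The log2 change was −0.84 (SE 0.35, edgeR unadjusted p = 0.0228, Benjamini-Hochberg adjusted p = 0.9998), and −0.95 without WT_2w 3 and WT_2w 4. Egr1 (log2 −0.36, SE 0.43), Klf6 (−0.24, SE 0.24) and Ier2 (−0.30, SE 0.20) did not pass. The median log2 change was −0.33 over the 8 members and 0.00 over all genes. Among the 43 other early genes 0 were called, 33 had a log2 change below 0, and the median was −0.15. The 14 stem cell markers summed to 3330 to 3891 CPM in VF, against 3504 to 5113 CPM in WT. The 9 neutrophil and monocyte markers, of which Lyz2 was highest, summed to 575 to 643 CPM in VF, against 436 to 584 CPM in WT. The 9 megakaryocyte markers summed to 232 to 398 CPM in VF, against 168 to 261 CPM in WT. The 11 erythroid markers summed to 144 to 278 CPM in VF, against 87.7 to 185 CPM in WT. Log2 changes were above 0 for 8 megakaryocyte and 10 erythroid markers. In these lists 0 were called, and their part in these values was not tested.

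Loss of the IL-1 genes was compared with VF within each week. Construct reads over both weeks differed too. CreERT2 had 14171 to 32987 reads in Il1bKO, against 5382 to 10224 in VF. In Il1r1KO, pEGFP had 24763 to 33012 reads, against 10221 to 16180 in VF. The second part of the human JAK2 construct had 2135 to 3604 reads in Il1r1KO, against 918 to 1681 in VF. The other construct ranges of the knockouts overlapped those of VF. Loss of the IL-1 genes cannot be told apart from these differences here. For Il1bKO against VF over both weeks edgeR, DESeq2 and limma voom called 0 of 8 members, where edgeR called 0.139% of all genes, and 1 member had an unadjusted p under 0.05 (Egr3, few reads). At 2 weeks (background 0.00734%, again 0 called by each tool) Nr4a2 was at 21.7, 23.2, 21.3 and 34.3 CPM in Il1bKO, against 13.6, 13.3, 17.0 and 12.3 CPM in VF. All 4 Il1bKO libraries were above all 4 VF libraries, which 1.56% of all genes were (log2 0.84, SE 0.35, edgeR unadjusted p = 0.0230, Benjamini-Hochberg adjusted p = 0.9999). Set against WT at 2 weeks, Nr4a2 averaged 25.1 ± 6.16 CPM in Il1bKO and 25.2 ± 2.88 CPM in WT (SD, n = 4 each), a difference smaller than the spread of either. The comparisons of VF with WT and of Il1bKO with VF share the VF libraries. At 4 weeks (background 0.125%, 0 called by each tool) Klf6 was lower in every Il1bKO library than in every VF library, which 7.3% of all genes were (log2 −0.55, SE 0.28, edgeR unadjusted p = 0.0570).

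For Il1r1KO against VF over both weeks edgeR called 0 of 8 members (background 0.169%), limma voom 0 and DESeq2 1, and 2 had an unadjusted p under 0.05, Klf6 and Klf4. Klf6 averaged 104 ± 51.8 CPM in Il1r1KO and 159 ± 73.7 CPM in VF (SD, n = 7 each). Its log2 change was −0.75 (SE 0.18, edgeR unadjusted p = 0.000468, Benjamini-Hochberg adjusted p = 0.11); DESeq2 called it (adjusted p = 0.00891). At 4 weeks the 3 Il1r1KO libraries, at 55.5, 54.0 and 43.1 CPM, were below the 3 VF libraries, at 115, 99.4 and 90.8 CPM (0.499-fold, SE 0.28 on the log2 scale, edgeR unadjusted p = 0.00153, Benjamini-Hochberg adjusted p = 0.141). At 2 weeks Klf6 was at 126, 126, 168 and 153 CPM in Il1r1KO, against 148, 154, 203 and 302 CPM in VF, and the groups overlapped (log2 −0.49, SE 0.24, edgeR unadjusted p = 0.0504). Against WT at 2 weeks, Klf6 in Il1r1KO had a log2 change of −0.73 (SE 0.24, edgeR unadjusted p = 0.00562, Benjamini-Hochberg adjusted p = 0.586; 0 of 8 members called by each tool, background 0.0587%). Leaving out WT_2w 3 and WT_2w 4 moved that change to −0.49. Il1bKO against WT had 0 members called by each tool (background 0.044%) and 0 with an unadjusted p under 0.05.

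Klf4 at 4 weeks had 1, 4 and 0 reads in Il1r1KO, against 45, 23 and 28 reads in VF, which did not overlap (fitted log2 −4.06, SE 1.32, edgeR unadjusted p = 0.00538, Benjamini-Hochberg adjusted p = 0.217). At 4 weeks (background 0.147% called, 0 members by edgeR and limma voom and 2 by DESeq2, Klf4 and Klf6) 3 members did not overlap, Klf4 and Klf6 lower and Nr4a1 higher, where 13.1% of all genes did not overlap, 6.65% lower and 6.46% higher. Nr4a1 was at 10.6, 16.9 and 13.0 CPM in Il1r1KO, against 5.23, 5.86 and 7.15 CPM in VF at 4 weeks (log2 1.15, SE 0.62, edgeR unadjusted p = 0.0779). At 2 weeks edgeR called 0 members (background 0.0514%, DESeq2 and limma voom 0), and 2 had an unadjusted p under 0.05. They were Egr1, at 294, 186, 551 and 485 CPM in Il1r1KO, against 179, 276, 198 and 135 CPM in VF, and Nr4a2, at 14.0, 12.5, 35.8 and 29.9 CPM in Il1r1KO, against 13.6, 13.3, 17.0 and 12.3 CPM in VF. Both overlapped (log2 0.94 with SE 0.43 for Egr1 and 0.72 with SE 0.34 for Nr4a2, edgeR, Benjamini-Hochberg adjusted p = 0.9999 for each). Between the knockouts over both weeks, edgeR, DESeq2 and limma voom called 0 members for Il1bKO against Il1r1KO (background 0.176%), and 3 had an unadjusted p under 0.05: Egr1 (log2 −0.76), Klf4 (2.49) and Klf6 (0.51). Klf4 was called there (edgeR, Benjamini-Hochberg adjusted p = 0.0476) without Il1bKO_4w 6, and its change moved to 1.60 without Il1bKO_4w 5.

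**Figure D4:**
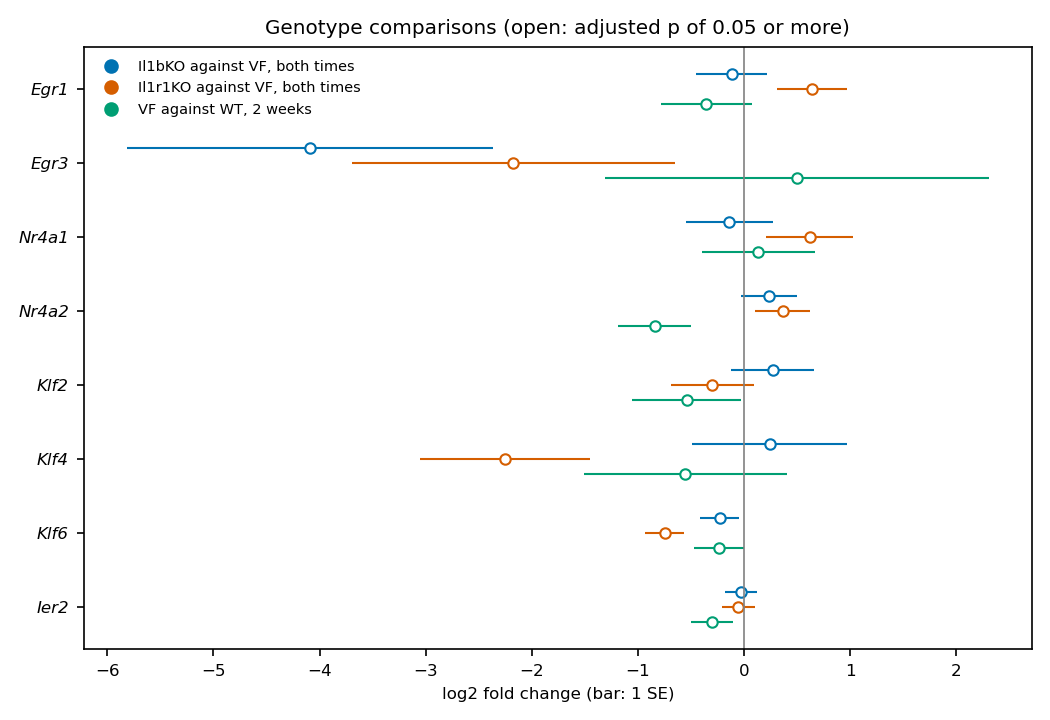
Log2 fold change of each member for Il1bKO against VF and Il1r1KO against VF (means of the 2 within-week differences) and for VF against WT at 2 weeks, with bars of 1 SE; open points did not pass the adjusted test. No point is filled; Klf6 in Il1r1KO lies at −0.75 with an SE of 0.18, and Nr4a2 in VF against WT at −0.84 with an SE of 0.35.

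Egr1 differed between replicates more than almost any gene of its level. With group means removed, the SD of its log2 CPM over the 25 libraries was 0.71, larger than in 499 of the 500 genes nearest to it in mean level, whose median SD was 0.19. Klf6 (SD 0.38, larger than 466 of 500) and Ier2 (0.31, larger than 460) were also among the variable genes of their level, and Nr4a1 (0.95) exceeded 421. The value of Nr4a1 rested on Il1bKO_4w 5: without that library, an alternative chosen after seeing the data, its SD was 0.54 (larger than 396 of 500, whose median was 0.40), while Egr1 had 0.73 (499 of 500), Klf6 0.39 (479) and Ier2 0.31 (471). Nr4a2 (0.51, 310 of 500), Klf2 (0.79, 299), Egr3 (1.79, 291) and Klf4 (1.25, 220) were nearer the middle of theirs.

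Egr1 and Ier2 varied together between the libraries of a group. Of the 7 relations of Egr1 with another member, tested as log2 CPM minus the group mean over the 25 libraries, Ier2 was the 1 that passed. Its Pearson r was 0.66 (two-sided permutation test within groups, p = 0.00442, Benjamini-Hochberg adjusted over the 7 relations 0.0309) and its Spearman rho 0.63 (permutation p = 0.00667, adjusted 0.0467). Within weeks, and so within batches, r was 0.73 over the 9 libraries of 4 weeks and 0.68 over the 16 of 2 weeks, and without VF_4w 6 and VF_4w 7, the farthest from the median of Egr1, it was 0.59. Nr4a1 had r = 0.32 (permutation p = 0.262, adjusted 0.472) and rho = 0.47 (permutation p = 0.0446, adjusted 0.156), and for Nr4a2, Klf2, Klf4, Klf6 and Egr3 r lay between −0.17 and 0.31 and did not pass. Within weeks, Nr4a1 had r = 0.18 over the 9 libraries of 4 weeks and 0.61 over the 16 of 2 weeks, Nr4a2 had 0.02 and 0.61, and Klf2 had −0.06 and 0.41; whether the weeks differ in r was not tested. In a ranking of 11180 genes by r with Egr1, as a description over libraries that share their groups, Clec1a (0.80), Caml (0.78), Myo5c (0.77), Trim47 (0.75), Vmp1 (0.74), Pde8a (0.74), Smim6 (0.74) and Sqor (0.73) came first, Ier2 came 36th and Nr4a1 1392nd. For Klf2 the genes most like it were Plekho2 (0.79), Kidins220 (0.78), Kri1 (0.77) and Ppm1f (0.74), and none of the members was among them.

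**Figure D5:**
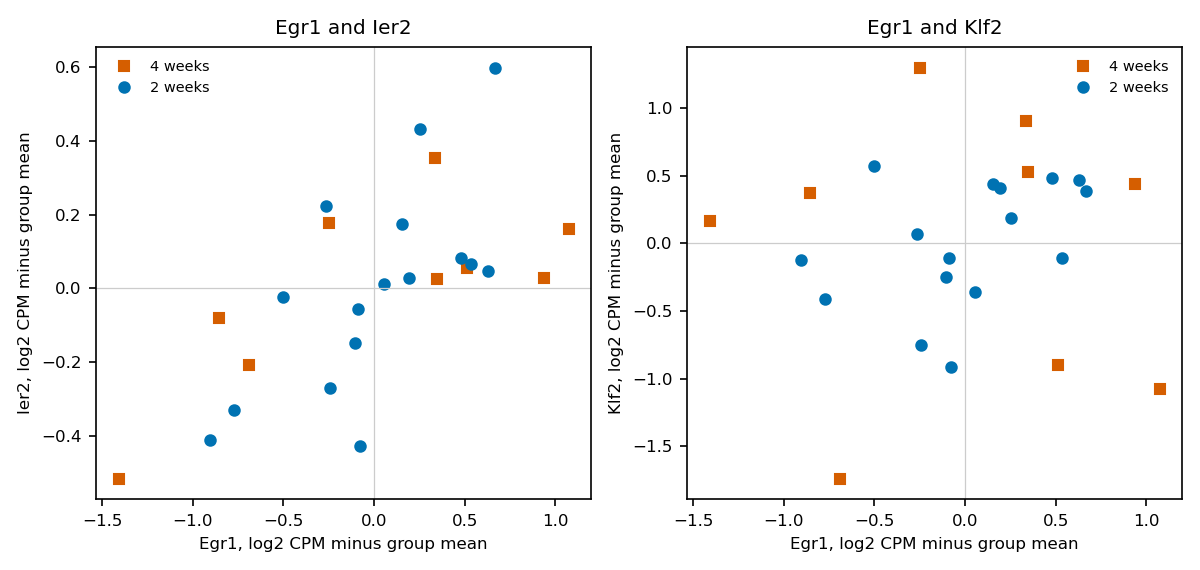
Deviation of Egr1 from its group mean (log2 CPM, x axis) against that of Ier2 (left) and Klf2 (right) in the 25 libraries, with 4-week libraries as squares and 2-week libraries as circles. Points rise together for Ier2 (r = 0.66) and not for Klf2 (r = 0.09).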

How the data were processed

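The data are raw read counts per gene, deposited by the authors for 25 libraries of SMART-Seq v4 cDNA from polyA RNA, which per the labels carry no strand. The table held 13641 genes, and 4 construct sequences that were kept out of tests. Tools named by the submitters' processing notes are STAR 2.7.10a on mm10, featureCounts, FastQC 0.11.5 and R 4.2.2. GENCODE vM21 gave symbols for 13623 genes and all positions, and no member overlaps another of its genes.

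edgeR 4.0.16 (R 4.3.3) fitted 7 groups at once with TMM scaling, filterByExpr and robust quasi-likelihood, and Benjamini-Hochberg adjustment ran over 13630 genes (threshold 0.05). The common dispersion was 0.169. The SE is the log2 change over the root of F. Correlations used log2 CPM (prior count 2) and 100000 permutations. Members, lists, tests and alternatives were chosen with earlier results of these data known. The text names all members and, per list, up to 4 called genes of lowest p and the 3 highest in CPM. Alternatives covered DESeq2 1.42.0, voom from limma 3.58.1, RLE or upper-quartile scaling, no filter, CPM of at least 5 in 3 libraries, fewer groups, a replicate block and omitted libraries. Nothing in the labels says whether each library is 1 mouse, so p-values measure only the spread between libraries. Scripts were tested on simulated data.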

Additional observations from a re-analysis of the deposited data

Results flagged for a closer look

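In 2 of 32 checks, each of 1 member in 1 group of 4 libraries, 1 library lay far from the others. The members share the same libraries, so the checks are not independent. For normally spread values chance gives such a gap in about 1 of 20 checks. That rate need not hold for Egr3, which had 0, 3, 62 and 0 reads in WT. Egr3 was at 2.26 CPM in WT_2w 3 and at 0 to 0.104 CPM in the other 3 WT libraries. Nr4a2 was at 34.3 CPM in Il1bKO_2w 4 and at 21.3 to 23.2 CPM in the other 3 Il1bKO libraries of 2 weeks. Both are part of the values above.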

How the results depend on the processing

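Over 1329 alternative values of single members and comparisons, 1275 kept direction and side of the threshold, 27 lost a call, 27 gained one and 0 changed sign. Comparisons of a member were followed only where its unadjusted p in the main test was under 0.05. Many of the alternatives left out a library outside the compared groups, which could move a value little, so these counts do not measure robustness. The count for 4 weeks against 2 weeks over the 3 mutants was 6 or 7 of 8 with each library left out. DESeq2 called 1 member for Il1r1KO against VF over both weeks and 2 at 4 weeks (0 by edgeR), 1 between weeks in VF (0) and 6 in Il1r1KO (3). Fitting only the compared groups, which leaves fewer libraries for the spread, gave 1 for Il1r1KO against VF over both weeks (0), 0 between weeks in Il1bKO (4) and 1 in Il1r1KO (3). With each library left out, counts were 0 to 5 between weeks in Il1bKO, 0 to 6 in Il1r1KO, and 0 to 1 for Il1bKO against Il1r1KO; 2 in Il1bKO without Il1bKO_2w 2, 3 or 4. The cause of the other shifts was not tested. Replicate numbers did not pair libraries: 0 of 26 pairs correlated above 0.1 (−0.15 to 0.05), and in 4 of 26 comparisons of a library it was nearest to its own number. With the replicate block, 0 members were called in each genotype comparison. Without VF_4w 7, Egr3 gave no value for Il1bKO against VF at 4 weeks. Members of few reads, Egr3 and Klf4, limit what depth can show.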
